A study of Mus musculus with 8 samples.

Results

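The transcriptomes of 4T1 cells that carried a short hairpin RNA (shRNA) against MCT-1 and of 4T1 cells that carried a scrambled hairpin were compared while both were exposed to an antibody against the IL-6 receptor. 4T1 is a p53-null mammary carcinoma line from BALB/c mice that is used as a model of triple-negative breast cancer. The comparison used the 4 of 8 libraries in the series that were labelled anti-IL6R, which were 2 libraries of shMCT-1 cells and 2 of scramble cells, and it covered the 12299 of 54532 listed genes with more than 1 CPM, a count scaled by the total of its library, in at least 2 of these 4 libraries. The antibody was given at 100 ng/ml for 48 h. The 4 remaining libraries were of the same lines exposed to a control IgG, and they entered the fit so that all libraries shared 1 estimate of spread. Both were stable lines kept under puromycin at 6 µg/ml. Each group carried 1 hairpin sequence, and the sources used here do not say whether the replicates were separate transfections or cultures of 1 stable line, so the effect of the knockdown and any difference between the cells that arose apart from it cannot be told apart. The series describes its replicates as independent, and where they were not separate cultures the p-values measure only the spread between these libraries. With 2 libraries against 2, an exact permutation test of a single gene cannot give a two-sided p below 0.333, so the calls rest on the spread shared across genes.

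MCT-1, encoded by Mcts1, pairs with DENR to act on the small ribosomal subunit in reinitiation of translation and in the recycling of ribosomes after termination, and Eif2d encodes a related protein that joins both parts in 1 chain. IL-6 binds its receptor alpha chain (Il6ra), and the complex recruits the shared signal transducer gp130 (Il6st), which activates JAK kinases and STAT3 and induces the feedback inhibitor Socs3. An antibody against the receptor blocks the ligand at this first step, so its effect is on signalling and need not appear in the mRNA of the receptor itself.

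Library totals ran from 19839299 to 33063570 counts over all 8 libraries. Both scramble libraries under anti-IL-6R (31249923 and 33063570) were deeper than both shMCT-1 libraries (19839299 and 21964845). Mitochondrially encoded genes took 1.97% and 2.27% of the counts in scramble and 0.847% and 0.840% in shMCT-1. Markers of mammary epithelium were present, with 10 of 13 tested and a summed level of 2537 to 2625 CPM in scramble and 3277 to 3548 CPM in shMCT-1. Of 14 leukocyte markers 1 passed the minimum, Cd68 (2.66 and 2.93 CPM in scramble and 7.51 and 5.42 CPM in shMCT-1, log2 fold change 1.25 ± 0.20 SE, edgeR adjusted p = 0.000693), and the summed level of the list was 4.16 to 4.36 CPM in scramble and 6.51 to 8.37 CPM in shMCT-1, with Ptprc (CD45) at 0.096 and 0.0605 CPM in scramble and 0 and 0.0455 CPM in shMCT-1. Of 9 fibroblast markers 2 passed the minimum, with summed levels of 15.4 to 17.3 and 12.7 to 15.9 CPM, and of 6 endothelial markers 1 passed, with 1.22 to 1.78 and 2.02 to 3.78 CPM. Of the 3 receptors whose absence from the tumour cells defines triple-negative cancer, Pgr was under the minimum, Esr1 was low (3.46 and 3.15 CPM in scramble and 4.28 and 4.46 CPM in shMCT-1) and was not called, though it was after correction for GC content and transcript length (log2 fold change 0.71, edgeR adjusted p = 0.0102), and Erbb2 read 55.7 and 58.6 CPM in scramble and 71 and 68.4 CPM in shMCT-1. Erbb2 was called higher (log2 fold change 0.34 ± 0.08 SE, edgeR adjusted p = 0.00646), a call that was lost without scramble replicate 1 under anti-IL-6R (edgeR adjusted p = 0.0777). In such bulk samples fewer cells of a type and less RNA per cell cannot be told apart.

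The target of the hairpin was compared over its full 21 bases to find transcripts with a like site. Sites with up to 3 mismatches were sought. Shorter partial matches were not searched, so other pairing of the hairpin was not tested. The sequence was compared with the transcripts of the mm10 annotation, and the 3 closest genes are printed here 5′ to 3′ in the sense of the mRNA, with letters that differ from the target in capitals.
Mcts1 site: tccttacagtaaatggagaat
Gm12837 site: tcTttacagtaaatggagaat
Mcts2 site: tccttacagtCaaCggagaat
The 21 bases matched Mcts1 without a mismatch in the coding sequence of exon 3 of 6 (chrX:38602593-38602613, mm10, plus strand). Gm12837 differed at 1 position (C3T, counted from 1 at the 5′ end of the target) and was at 0 counts in all 4 libraries. The Mcts2 site (chr2:152687452-152687472, plus strand) lay in the coding sequence of its single exon and differed at 2 positions (A11C and T14C). A further 4 genes held a site with 3 mismatches, of which only Mycbp was tested (18.5 and 17.8 CPM in scramble and 17.3 and 17.8 CPM in shMCT-1), and it was not called (log2 fold change 0.01 ± 0.10 SE, edgeR adjusted p = 0.951).

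Mcts1 mRNA fell in shMCT-1 and remained detectable. Mcts1 (chromosome X, 38600578 to 38613426) read 12.8 and 13.5 CPM in scramble and 6.7 and 4.92 CPM in shMCT-1, with no overlap between the groups, and its log2 fold change was -1.13 ± 0.17 (SE, edgeR adjusted p = 0.000507). Leaving out single libraries moved it from -1.38 to -0.91, and it held its call in each of these fits. Mcts2, the intronless relative of Mcts1, read 26.8 and 26.6 CPM in scramble and 11.3 and 12.3 CPM in shMCT-1. Its libraries were likewise apart and its log2 fold change was -1.13 ± 0.11 (SE, edgeR adjusted p = 3.9e-05). The coding sequences of the pair are alike, so reads that match both were split between them by the expected-count method, and their separate values are uncertain.

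The other members of this machinery moved in both directions. Denr, the partner of MCT-1, read 91.5 and 96.3 CPM in scramble and 191 and 173 CPM in shMCT-1, so that both shMCT-1 libraries lay above both scramble libraries (log2 fold change 1.00 ± 0.12 SE, edgeR adjusted p = 0.000108). Eif2d read 42.3 and 42.3 CPM in scramble and 64.2 and 61.5 CPM in shMCT-1 and rose as well (log2 fold change 0.62 ± 0.08 SE, edgeR adjusted p = 0.000252). Of 13 genes for MCT-1 and reinitiation or ribosome recycling factors, 6 rose, 4 fell and 3 were not called, where 4 of the rises and 3 of the falls held whichever library was left out, with a median log2 fold change of 0.19. Over all 12299 tested genes, 55% were called at an adjusted p under 0.05, 27.1% higher and 27.9% lower, and the median was 0.01, which is the background for this list and for those that follow. After Mcts1 and Mcts2 the largest fall was that of Eif5, a partner of eIF2 in start codon selection (773 and 783 CPM in scramble and 447 and 486 CPM in shMCT-1, log2 fold change -0.69 ± 0.08 SE, edgeR adjusted p = 0.000132), and Eif1b, a paralogue of the start codon fidelity factor eIF1, rose (25.3 and 23 CPM in scramble and 45.4 and 42.3 CPM in shMCT-1, log2 fold change 0.91 ± 0.10 SE, edgeR adjusted p = 8.69e-05).

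The scale of the difference was broad. In the edgeR quasi-likelihood fit, 6766 genes were called (55%), 3335 of them higher and 3431 lower in shMCT-1. An absolute log2 fold change above 1 was reached by 1792 called genes (14.6%), of which 715 were higher (5.81%) and 1077 lower (8.76%). The groups of libraries did not overlap in 10050 genes (81.7%). Of the 6766 calls, 4104 held whichever of the 8 libraries was left out and none changed sign. The count fell to 4399 without scramble replicate 2 under anti-IL-6R, 4887 without scramble replicate 1, and 5406 without shMCT-1 replicate 1, and it was 6851 without shMCT-1 replicate 2. Of the tested genes, 11119 exceeded 1 CPM in all 4 libraries, while 458 passed the minimum only through the scramble pair and 271 only through the shMCT-1 pair, so those genes were measured because 1 group was high and they could pass in that direction alone. Counts over the gene lists below include such genes, and beside each list that holds calls of this kind their number is given as rises or falls through 1 group alone. A named gene of this kind is marked as through that group alone and is given with no edgeR p. Its SE comes from the same test and gives no support. Counts of calls that held with a library left out include such genes, whose direction was fixed.

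**Figure D1:**
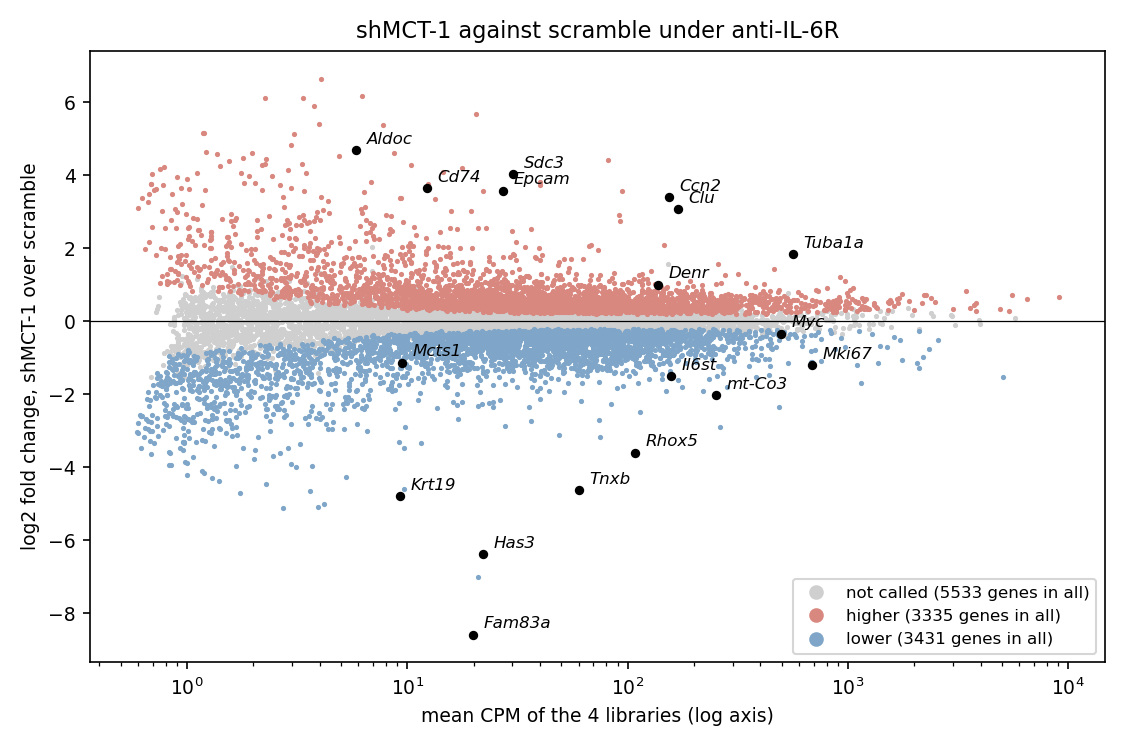
Log2 fold change (y axis, shMCT-1 over scramble under anti-IL-6R) against the mean CPM of the 4 libraries (x axis, log axis), with 1 point per gene that has a fitted fold change and black points for named genes. Genes called higher (red, 3335 in all) and lower (blue, 3431 in all) lie on both sides of 0, those not called are grey, and genes whose fold is only a lower bound or has a counting interval are not drawn.

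The same contrast under IgG, which used 4 other libraries of the same lines, called 6788 of these genes (55.2%). Fitted on its own 4 libraries each time, the contrast gave 6827 calls under anti-IL-6R and 6442 under IgG, of which 5616 were shared (82.3% of the first and 87.2% of the second). Of the shared calls 5614 had the same direction and 2 the opposite. Of 1795 genes called under anti-IL-6R with an absolute log2 fold change above 1, 1781 (99.2%) had the same sign under IgG. The difference between the treatments was tested directly as an interaction, and edgeR called 0 genes at an adjusted p under 0.05 (smallest 0.390), with 306 (2.49%) at an unadjusted p under 0.05. This was fewer than the 615 expected by chance, so the test was conservative and 0 calls does not show equal contrasts. Without the minimum of 1 CPM, edgeR called 97 of a larger set of genes. At the minimum DESeq2 called 5 genes, Lypd1, mt-Co3, 3110039I08Rik, Gm28048 and Srp54b, which are named here because they are the whole count. Of these mt-Co3, a mitochondrially encoded subunit of cytochrome c oxidase, had mean levels of 341 CPM in scramble and 239 CPM in shMCT-1 under IgG, and of 405 and 97.1 CPM under anti-IL-6R. Values below are therefore those under anti-IL-6R, and they are not shown to be particular to the antibody.

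Receptors of the IL-6 family fell. Il6ra read 25.3 and 28.4 CPM in scramble and 8.97 and 11.7 CPM in shMCT-1, with both shMCT-1 libraries below both scramble libraries, and its log2 fold change was -1.32 ± 0.17 (SE, edgeR adjusted p = 0.000183). Il6st, which encodes gp130, read 229 and 239 CPM in scramble and 67.4 and 92.4 CPM in shMCT-1 (log2 fold change -1.50 ± 0.13 SE, edgeR adjusted p = 1.72e-05). Osmr, the oncostatin M receptor chain that also pairs with gp130, read 10.2 and 12.4 CPM in scramble and 3.38 and 4.19 CPM in shMCT-1 (log2 fold change -1.53 ± 0.18 SE, edgeR adjusted p = 0.000113). None of the 3 receptors overlapped between the groups, and under IgG their log2 fold changes were -1.05, -1.47 and -1.42. Stat3, the transcription factor they activate, read 59.6 and 59.6 CPM in scramble and 48.2 and 57.5 CPM in shMCT-1 and was not called (log2 fold change -0.12 ± 0.11 SE, edgeR adjusted p = 0.347).

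**Figure D2:**
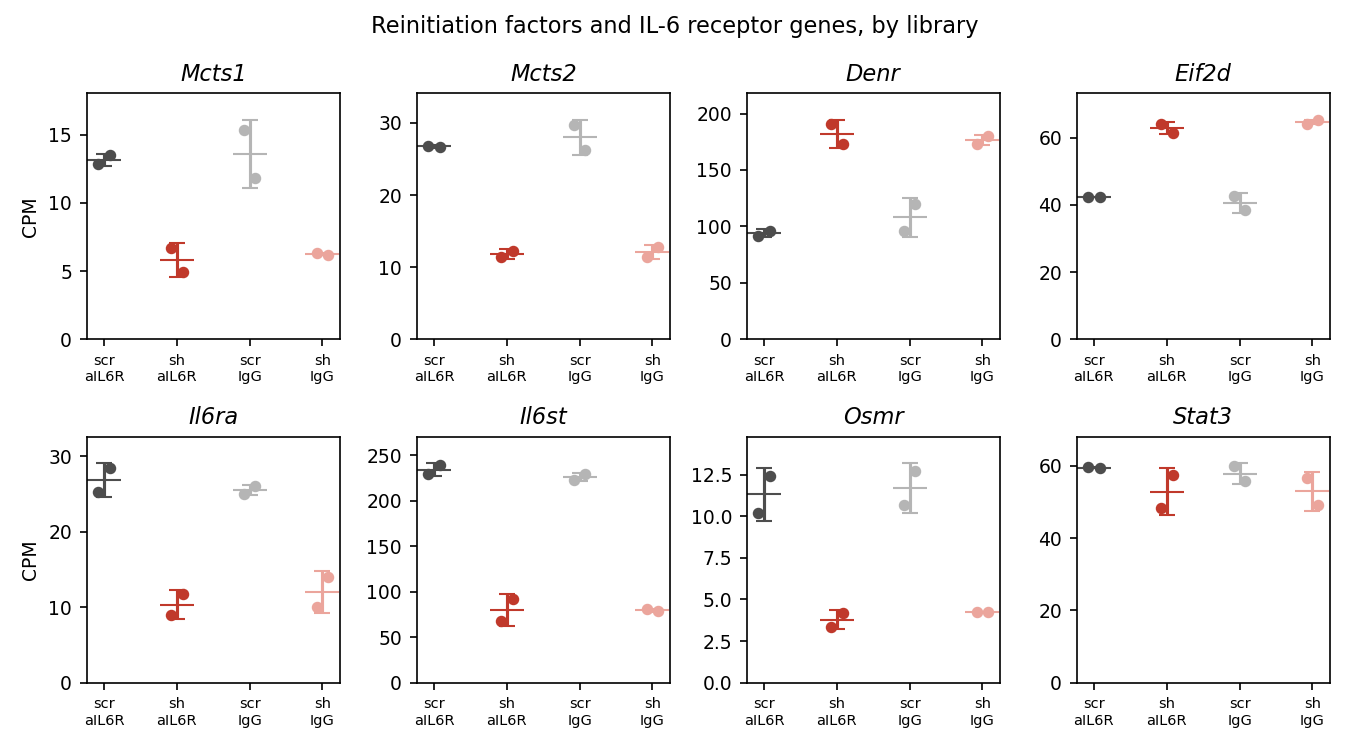
CPM on linear axes from 0 for 8 genes of reinitiation and the IL-6 family, in the scramble (scr) and shMCT-1 (sh) libraries under anti-IL-6R (aIL6R) and IgG, with points for single libraries, horizontal lines for the means of 2 and bars for the SD. Mcts1, Mcts2, Il6ra, Il6st and Osmr are lower in both shMCT-1 libraries than in both scramble libraries under either antibody, and Denr and Eif2d are higher in both.

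Of 31 listed genes of the IL-6 family and JAK-STAT signalling 28 were tested, of which 6 rose, 10 fell and 12 were not called (median log2 fold change -0.21), and 6 of the rises and 7 of the falls held whichever library was left out. The 2 tested members on chromosomes 2, 12 and 13, which were lower as a whole (below), both fell. The list median was -0.03 after a loess correction of each library for GC content and transcript length, both of which moved with the comparison, and 7 members were then higher and 11 lower. For the lists that follow, held gives how many rises and falls kept their call whichever library was left out, and corrected gives how many members were higher and lower, and their median, in the fit with this correction. The third largest fall on the list was Il1r1, which encodes the signalling receptor for IL-1 and is not itself of the IL-6 family (23.5 and 23.6 CPM in scramble and 9.07 and 9.01 CPM in shMCT-1, log2 fold change -1.33 ± 0.10 SE, edgeR adjusted p = 1.02e-05). Members that rose included Cish (3.17 and 2.27 CPM in scramble and 5.39 and 6.6 CPM in shMCT-1, log2 fold change 1.19 ± 0.22 SE, edgeR adjusted p = 0.00128) and Socs2 (3.94 and 3.48 CPM in scramble and 6.15 and 7.51 CPM in shMCT-1, log2 fold change 0.93 ± 0.18 SE, edgeR adjusted p = 0.00189), 2 inhibitors of cytokine receptor signalling that STAT5 induces, and Bcl3, an atypical IκB protein (log2 fold change 0.90 ± 0.21 SE, edgeR adjusted p = 0.00551). Feedback genes went both ways, since Cish and Socs2 rose while Socs3, given below, fell like the receptor genes. Further members were named after their values were seen. Jak1 fell from 246 and 245 CPM to 115 and 143 CPM (log2 fold change -0.88 ± 0.11 SE, edgeR adjusted p = 0.000125), and Socs3, the feedback inhibitor downstream of STAT3, fell from 25.7 and 26.6 to 16 and 14.8 CPM (log2 fold change -0.72 ± 0.12 SE, edgeR adjusted p = 0.000837).

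Several genes of the axis that the study follows were below the minimum of 1 CPM. Il6 read 0.32 and 0.514 CPM in scramble and 0 and 0.0911 CPM in shMCT-1, which is 10 and 17 counts against 0 and 2. Cxcr2, a receptor for CXCL7, read 0.288 and 0.121 CPM in scramble and 0 and 0.41 CPM in shMCT-1, and Ppbp, which encodes CXCL7, read 0.384 and 0.575 CPM in scramble and 0.454 and 0.819 CPM in shMCT-1. The Cxcr2 and Ppbp libraries overlapped between the groups. Cd274, which encodes PD-L1, read 0.32 and 0.333 CPM in scramble and 0.756 and 1.37 CPM in shMCT-1, and Egfr read 0.288 and 0.423 CPM in scramble and 1.06 and 0.774 CPM in shMCT-1, so that for both genes the shMCT-1 libraries held the higher values, at 9 to 30 counts per library. None of these 5 genes exceeded 1 CPM in 2 libraries, so they were tested only in the edgeR fit without the minimum, at the few counts given. There Il6 was called lower (log2 fold change -2.95, edgeR adjusted p = 0.0118), and Cd274 and Egfr were called higher (log2 fold changes 1.76 and 1.42, edgeR adjusted p = 0.00301 and 0.0334), while Ppbp and Cxcr2 were not called (edgeR adjusted p = 0.652 and 1). Myc was abundant (561 and 568 CPM in scramble and 427 and 437 CPM in shMCT-1) and was called lower (log2 fold change -0.34 ± 0.09 SE, edgeR adjusted p = 0.012), a call that was lost without scramble replicate 1 or without scramble replicate 2 under anti-IL-6R (edgeR adjusted p = 0.0678 and 0.0801). Its log2 fold change was -0.54 when corrected for GC content and transcript length.

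Among chemokines, cytokines and colony-stimulating factors 17 of 29 were tested, of which 8 rose, 4 fell and 5 were not called (median 0.26, corrected 8 and 4 with a median of 0.28), and 5 of the rises and 3 of the falls held whichever library was left out. Tslp, an epithelial alarmin, read 7.42 and 7.59 CPM in scramble and 1.46 and 1.27 CPM in shMCT-1 (log2 fold change -2.41 ± 0.22 SE, edgeR adjusted p = 2.54e-05). Ccl20, a chemoattractant for CCR6-bearing cells, read 5.89 and 6.53 CPM in scramble and 1.36 and 2.37 CPM in shMCT-1 (log2 fold change -1.67 ± 0.25 SE, edgeR adjusted p = 0.000408), and Cxcl5, a ligand of CXCR2, read 264 and 251 CPM in scramble and 73.6 and 88.9 CPM in shMCT-1 (log2 fold change -1.61 ± 0.11 SE, edgeR adjusted p = 3.79e-06). In the other direction, Il1a, an alarmin of the IL-1 family, read 6.08 and 6.41 CPM in scramble and 35.3 and 35.6 CPM in shMCT-1 (log2 fold change 2.55 ± 0.10 SE, edgeR adjusted p = 1.9e-07), and Ccl5, a T cell chemoattractant, read 1.86 and 1.69 CPM in scramble and 4.74 and 6.15 CPM in shMCT-1 (log2 fold change 1.67 ± 0.32 SE, edgeR adjusted p = 0.00169). For each of these 5 genes the groups were apart. Of 17 listed immune checkpoint ligands 7 were tested, of which 5 rose, 1 fell and 1 was not called (median 0.37, held 2 and 0, corrected 3 and 1 with a median of 0.23). The largest rise was Lgals9, which encodes the TIM-3 ligand galectin-9 (4.42 and 4.54 CPM in scramble and 15.9 and 12.8 CPM in shMCT-1, log2 fold change 1.73 ± 0.15 SE, edgeR adjusted p = 2.07e-05), and Pvr, a ligand of TIGIT, was not called (72 and 79 CPM in scramble and 70.2 and 71.3 CPM in shMCT-1).

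A set of genes was close to absent from 1 line and present in the other. Held to at most 3 counts over both libraries of 1 group, 56 tested genes were absent from scramble and 26 from shMCT-1. These genes could pass the minimum only through the group where they were high, so the counts describe the libraries and support no comparison. Of the 56, 52 were protein-coding, 25 were at 0 in both scramble libraries, 54 also had at most 3 counts in scramble under IgG, and 11 reached 5 CPM in shMCT-1. Of the 26, 10 were protein-coding, 10 were at 0 in both shMCT-1 libraries, 16 had at most 3 counts in shMCT-1 under IgG, and 3 reached 5 CPM in scramble.

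E2f6 was absent from shMCT-1 and Mga from scramble. E2f6 (chromosome 12, 16810963 to 16839742), a repressor of the E2F family, read 23.7 and 26.4 CPM in scramble and 0 CPM in both shMCT-1 libraries, at least 349-fold lower when 3 counts over the group were allowed. Mga (chromosome 2, 119897228 to 119969581), a DNA-binding partner of MAX, read 0 CPM in both scramble libraries and 16.8 and 24.7 CPM in shMCT-1, at least 449-fold higher. Under IgG the levels were close to these, with E2f6 at 26.3 and 23.1 CPM in scramble and 0 CPM in both shMCT-1 libraries and Mga at 0.0363 and 0 CPM in scramble and 21.2 and 23.9 CPM in shMCT-1. Both proteins belong to PRC1.6, a Polycomb complex that silences germline genes. Of its 16 listed members 3 rose, 3 fell and 10 were not called (median 0.09, -0.01 when corrected for GC content and length). Of these calls, Mga passed through shMCT-1 alone and E2f6 through scramble alone. Tfdp2 held its call with each library left out. For Mga and E2f6 such fits could go in 1 direction only and give no support. The cofactor Max was not called (91.6 and 90.2 CPM in scramble and 91.7 and 92.1 CPM in shMCT-1). Tfdp2, a dimer partner of E2F proteins, fell (18.4 and 16.8 CPM in scramble and 8.97 and 10.8 CPM in shMCT-1, log2 fold change -0.78 ± 0.13 SE, edgeR adjusted p = 0.000701, -0.45 when corrected for GC content and length). Of 41 listed germline genes only 3 passed the minimum, and each fell. Rhox5, an X-linked homeobox gene of testis, read 202 and 198 CPM in scramble and 16.4 and 15.5 CPM in shMCT-1 (log2 fold change -3.60 ± 0.12 SE, edgeR adjusted p = 6.26e-08), Sycp1, a synaptonemal complex protein, read 1.63 and 2.69 CPM in scramble and 0.504 and 0.319 CPM in shMCT-1 (log2 fold change -2.35 ± 0.39 SE, through scramble alone), and Zcwpw1, a histone reader of meiosis, read 92.3 and 99.2 CPM in scramble and 28.1 and 29.6 CPM in shMCT-1 (log2 fold change -1.68 ± 0.10 SE, edgeR adjusted p = 1.99e-06).

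The genes on either side of E2f6 and Mga were looked at after the values of those genes were seen. Next to E2f6, Lpin1 (mean 37.3 CPM in scramble and 20.3 CPM in shMCT-1, log2 fold change -0.83) and Rock2 (301 and 149 CPM, log2 fold change -0.97, -0.52 when corrected) were lower and still present. Next to Mga, Tyro3 was not called (29.6 and 24.5 CPM, log2 fold change -0.22, with an edgeR adjusted p of 0.0144 when corrected) and Mapkbp1 was lower (25.6 and 10.8 CPM, log2 fold change -1.20). Of the 3 tested genes on each side, Ltk, a receptor tyrosine kinase that is the third before Mga, was also at 0 in both scramble libraries and had a mean of 1.26 CPM in shMCT-1, and it passed the minimum only through shMCT-1. The other 11 were present in both lines.

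Other genes were at or near 0 in scramble. Tspan12, a tetraspanin of Norrin signalling, read 0 CPM in both scramble libraries and 5.24 and 6.42 CPM in shMCT-1, at least 126-fold higher, and Bmyc, a short MYC relative, read 0 CPM in both scramble libraries and 5.7 and 4.69 CPM in shMCT-1, at least 111-fold higher. Chchd10, a protein of the mitochondrial intermembrane space, read 0 and 0.0302 CPM in scramble and 11.8 and 9.38 CPM in shMCT-1, a ratio of pooled CPM of 677 with an exact 95% counting interval of 121 to 26797. Such an interval covers counting error only, and its width follows from 1 count in scramble. For Dact2, Maged2 and Panx1, the last a membrane channel for ATP release, the ratios were 651 (116 to 25764), 608 (108 to 24062) and 531 (94.6 to 21024). Ratios of Sgsm1, of the guidance protein Sema5a and of the plasminogen activator inhibitor Serpinb2 were 252 (85.7 to 1225), 219 (60.1 to 1819) and 212 (58.2 to 1762). Rnase4, a secreted ribonuclease, read 0.064 and 0.0907 CPM in scramble and 7.86 and 8.15 CPM in shMCT-1 (log2 fold change 6.65 ± 0.30 SE, through shMCT-1 alone), and Igfbp7, a secreted binding protein for insulin-like growth factors, read 0.128 and 0.212 CPM in scramble and 11.9 and 12.6 CPM in shMCT-1 (log2 fold change 6.17 ± 0.25 SE, through shMCT-1 alone).

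**Figure D3:**
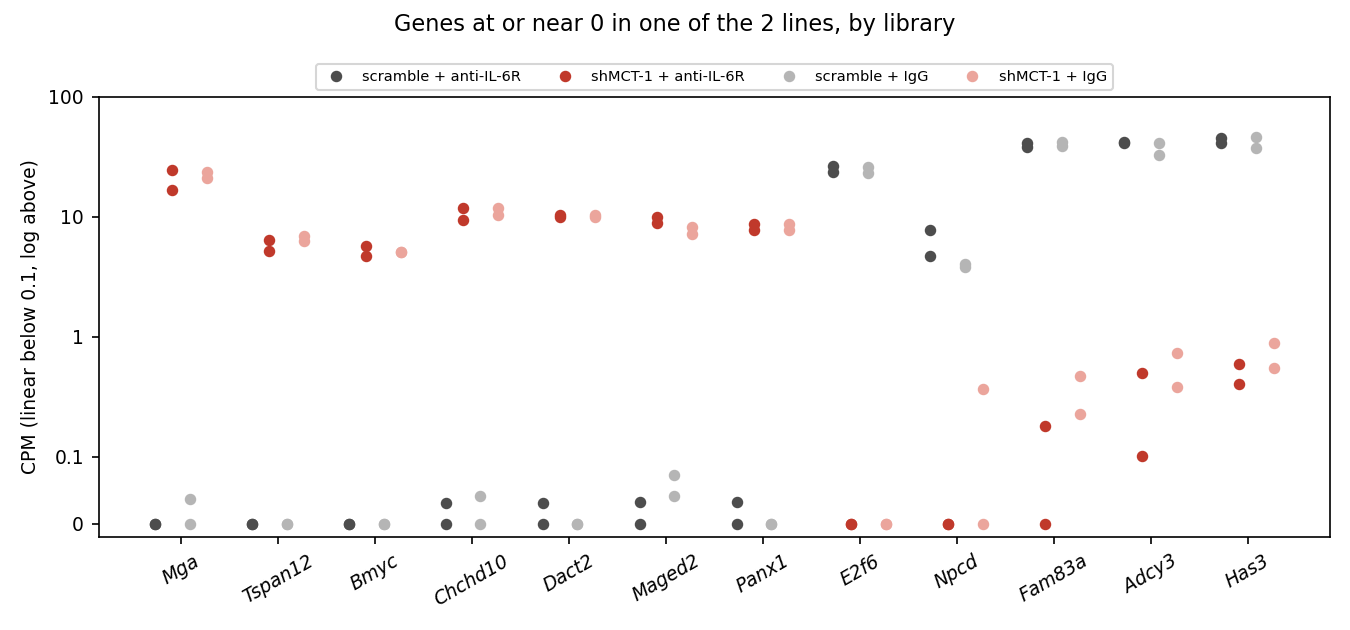
CPM (y axis, linear below 0.1 and log above) of 12 genes that are at or near 0 in 1 of the 2 lines, with 1 point per library and colours for the 4 groups. Under anti-IL-6R Mga is at 0 in both scramble libraries and E2f6 at 0 in both shMCT-1 libraries. The IgG libraries of each line mostly lie near those of the same line, but Npcd is at 0.366 CPM in shMCT-1 replicate 1 under IgG.

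The strongest falls among protein-coding genes with at least 5 CPM in scramble were of several kinds. Npcd read 4.74 and 7.74 CPM in scramble and 0 CPM in both shMCT-1 libraries, at least 87.5-fold lower. Under IgG Npcd read 3.85 and 4.07 CPM in scramble and 0.366 and 0 CPM in shMCT-1. Fam83a, a scaffold of EGFR and RAS signalling, read 41.2 and 38.4 CPM in scramble and 0 and 0.182 CPM in shMCT-1 (log2 fold change -8.58 ± 0.33 SE, through scramble alone). Without shMCT-1 replicate 2 the log2 fold change of Fam83a was -12.98, a move far beyond this SE. Adcy3, an adenylyl cyclase, read 41 and 41.9 CPM in scramble and 0.101 and 0.501 CPM in shMCT-1 (log2 fold change -6.99 ± 0.30 SE, through scramble alone). Has3, a hyaluronan synthase, read 41.3 and 45.6 CPM in scramble and 0.403 and 0.592 CPM in shMCT-1 (log2 fold change -6.37 ± 0.22 SE, through scramble alone), and Krt19, a keratin of simple epithelium, read 19.5 and 16.5 CPM in scramble and 0.454 and 0.774 CPM in shMCT-1 (log2 fold change -4.80 ± 0.23 SE, through scramble alone). These 4 genes were each under 1 CPM in both shMCT-1 libraries. Tnxb, the extracellular glycoprotein tenascin-X, fell from a higher level (116 and 115 CPM in scramble and 4.03 and 5.05 CPM in shMCT-1, log2 fold change -4.62 ± 0.12 SE, edgeR adjusted p = 4.24e-08). The growth-arrest gene Gas7, the steroid dehydrogenase Hsd17b11, Btbd6 and Gm3448 fell by log2 fold changes of -5.12, -5.07, -5.02 and -4.59. Gm28539 fell as well (6.78 and 4.36 CPM in scramble and 0 and 0.683 CPM in shMCT-1, log2 fold change -3.90 ± 0.92 SE, through scramble alone), but under IgG it read 0 CPM in both scramble libraries and 5.35 and 1.07 CPM in shMCT-1, so its direction there was the opposite, and DESeq2 did not call it (adjusted p = 0.108). Without shMCT-1 replicate 2 the log2 fold change of Gm28539 was -10.15.

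Among genes with a mean of at least 200 CPM in the higher group, Ccn2, a matricellular protein also called CTGF, rose most (27 and 27.9 CPM in scramble and 290.1 and 269.8 CPM in shMCT-1, log2 fold change 3.40 ± 0.11 SE, edgeR adjusted p = 6.26e-08). The secreted chaperone Clu read 38.8 and 35.6 CPM in scramble and 308 and 293 CPM in shMCT-1 (log2 fold change 3.06 ± 0.12 SE, edgeR adjusted p = 1.9e-07), and the gelatinase Mmp9 read 59.1 and 55 CPM in scramble and 235 and 234 CPM in shMCT-1 (log2 fold change 2.09 ± 0.14 SE, edgeR adjusted p = 3.73e-06). Tuba1a, an alpha tubulin, and Ccn1, a relative of Ccn2, rose by log2 fold changes of 1.84 and 1.42. The largest falls were mt-Co3 (385 and 425 CPM in scramble and 116 and 78.4 CPM in shMCT-1, log2 fold change -2.01 ± 0.18 SE, edgeR adjusted p = 2.7e-05), Nfat5, the osmotic stress factor (334 and 369 CPM in scramble and 69.5 and 111 CPM in shMCT-1, log2 fold change -1.91 ± 0.17 SE, edgeR adjusted p = 2.49e-05), and the complement component C3 (243 and 234 CPM in scramble and 52.3 and 71.3 CPM in shMCT-1, log2 fold change -1.90 ± 0.15 SE, edgeR adjusted p = 1.33e-05). The nuclear envelope protein Syne2 and the ribosome assembly ATPase Mdn1 fell by log2 fold changes of -1.80 and -1.79. Nfat5, Syne2 and Mdn1 have long transcripts, and corrected for GC content and length their log2 fold changes were -1.23, -1.05 and -1.09. A lack of overlap between the groups was a condition for naming these 10 genes, so it is no result.

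Of 27 listed antigen presentation genes 21 were tested, of which 16 rose, 3 fell and 2 were not called (median 0.58, corrected 13 and 3 with a median of 0.39), and 12 of the rises and 2 of the falls held whichever library was left out. Of the rises 2, Psmb8 and Cd1d1, passed the minimum through shMCT-1 alone and are a description. Psmb8, an immunoproteasome subunit, read 0.096 and 0.0302 CPM in scramble and 4.54 and 4.42 CPM in shMCT-1 (log2 fold change 6.11 ± 0.51 SE, through shMCT-1 alone). Cd1d1, which presents lipids, read 0.192 and 0.242 CPM in scramble and 4.64 and 3.73 CPM in shMCT-1 (log2 fold change 4.28 ± 0.34 SE, through shMCT-1 alone), and Cd74, the invariant chain of MHC class II, read 1.54 and 2.21 CPM in scramble and 23.7 and 21.7 CPM in shMCT-1 (log2 fold change 3.64 ± 0.19 SE, edgeR adjusted p = 9.42e-07). These 3 were low or near absent in scramble, while the class I genes, named after their values were seen, were abundant in both lines. H2-K1 read 91.5 and 89.2 CPM in scramble and 133 and 128 CPM in shMCT-1 (log2 fold change 0.58 ± 0.10 SE, edgeR adjusted p = 0.000947), H2-D1 rose likewise (log2 fold change 0.68 ± 0.10 SE, edgeR adjusted p = 0.00032), and their light chain B2m read 210.1 and 204 CPM in scramble and 307 and 295 CPM in shMCT-1 (log2 fold change 0.59 ± 0.09 SE, edgeR adjusted p = 0.000491). Class I genes are alike in sequence and their separate values are uncertain, and the corrected log2 fold changes were 0.30 for H2-K1 and 0.42 for H2-D1. Tapbpl, a peptide editor, and Erap1, a peptide-trimming enzyme, fell (log2 fold changes -0.56 and -0.55, the latter -0.25 when corrected).

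Of 42 listed interferon-stimulated genes 29 were tested, of which 19 rose, 2 fell and 8 were not called (median 0.76, corrected 18 and 2 with a median of 0.82), and 13 of the rises and 1 of the falls held whichever library was left out. Of the rises 5, Oas1a and Oas1g among them, passed the minimum only through shMCT-1 and are a description. Oas1a, a sensor of double-stranded RNA, read 0.224 and 0.181 CPM in scramble and 4.28 and 4.46 CPM in shMCT-1 (log2 fold change 4.45 ± 0.29 SE, through shMCT-1 alone), and its relative Oas1g read 0 CPM in both scramble libraries and 1.26 and 1.55 CPM in shMCT-1 (at least 30.3-fold higher). Irf8, an interferon regulatory factor, read 1.44 and 1.24 CPM in scramble and 11.2 and 10.7 CPM in shMCT-1 (log2 fold change 3.08 ± 0.17 SE, edgeR adjusted p = 1.51e-06). Ddx58, which encodes the RNA sensor RIG-I, went the other way (47.1 and 47.8 CPM in scramble and 22.4 and 28.3 CPM in shMCT-1, log2 fold change -0.85 ± 0.12 SE, edgeR adjusted p = 0.000266). The Oas1 paralogues are alike and their separate values are uncertain. For genes of NF-κB, TBK1 and their adaptors falls outnumbered rises, and 26 of 27 were tested, of which 2 rose, 13 fell and 11 were not called (median -0.28, corrected 2 and 12 with a median of -0.25), and 2 of the rises and 7 of the falls held whichever library was left out. Tank, Ikbkg and Traf3, which are adaptors or kinase subunits of these pathways, fell (log2 fold changes -0.86, -0.79 and -0.79, with -0.47 for Ikbkg when corrected), and Vcam1, an adhesion molecule that NF-κB induces, rose (4.32 and 4.42 CPM in scramble and 33.2 and 35.8 CPM in shMCT-1, log2 fold change 3.03 ± 0.11 SE, edgeR adjusted p = 1.16e-07). All 6 tested members on chromosomes 2, 12 and 13 fell.

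The cell cycle lists were uneven. All 51 mitosis genes were tested, and 5 rose, 26 fell and 20 were not called (median -0.29, corrected 6 and 23 with a median of -0.22), and 1 of the rises and 17 of the falls held whichever library was left out. Mki67, the proliferation marker Ki-67, read 938 and 988 CPM in scramble and 309 and 504 CPM in shMCT-1 (log2 fold change -1.20 ± 0.20 SE, edgeR adjusted p = 0.000926), and Anln, a scaffold of the cleavage furrow, read 513 and 526 CPM in scramble and 209.8 and 282 CPM in shMCT-1 (log2 fold change -1.03 ± 0.12 SE, edgeR adjusted p = 0.000106). Ccnb2, a mitotic cyclin, rose (64.9 and 66.1 CPM in scramble and 95.9 and 88.7 CPM in shMCT-1, log2 fold change 0.54 ± 0.09 SE, edgeR adjusted p = 0.000554), and Ccna2, the cyclin of S and G2 phase, was not called (405 and 397 CPM in scramble and 397 and 386 CPM in shMCT-1). Among 49 DNA replication genes 11 rose, 9 fell and 29 were not called (median -0.01, held 5 and 5, corrected 13 and 14 with a median of -0.03), with Top1, a topoisomerase, and Pcna, the sliding clamp, lower (log2 fold changes -0.71 and -0.59) and Rpa3, a subunit that binds single-stranded DNA, higher (0.82). Of 26 tested genes for G1 cyclins, CDK inhibitors, E2F and pocket proteins, 7 rose, 11 fell and 8 were not called (median -0.09, held 3 and 6, corrected 7 and 10 with a median of -0.13). Cdk6 fell (369 and 379.8 CPM in scramble and 139.5 and 172 CPM in shMCT-1, log2 fold change -1.21 ± 0.10 SE, edgeR adjusted p = 1.8e-05) while Cdk4, which phosphorylates the same pocket proteins, rose (296 and 282 CPM in scramble and 469 and 410.1 CPM in shMCT-1, log2 fold change 0.65 ± 0.09 SE, edgeR adjusted p = 0.000297). Rbl1, the pocket protein p107, fell (log2 fold change -0.94), and Cdkn1a, the CDK inhibitor p21, rose (0.64). Corrected for GC content and length, the log2 fold changes were -0.73 for Mki67, -0.63 for Cdk6, 0.41 for Cdk4, 0.39 for Cdkn1a and 1.45 for Rpa3. In the MYC network of 12 tested genes 3 rose, 4 fell and 5 were not called (median 0.04, held 2 and 2, corrected 3 and 4 with a median of -0.05, with 1 rise through 1 group alone), with the MAX partner Mxd4 lower (log2 fold change -1.07) and Bmyc higher as above.

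Genes of epithelial junctions and their regulators were tested in 32 of 41 cases, of which 14 rose, 7 fell and 11 were not called (median 0.23, corrected 13 and 8 with a median of 0.16, with 1 rise through 1 group alone), and 11 of the rises and 5 of the falls held whichever library was left out. Epcam, an epithelial adhesion molecule, read 4.93 and 3.75 CPM in scramble and 50.5 and 49.4 CPM in shMCT-1 (log2 fold change 3.58 ± 0.14 SE, edgeR adjusted p = 1.54e-07). Cldn4, a tight junction claudin, read 5.57 and 5.41 CPM in scramble and 77.9 and 71.8 CPM in shMCT-1 (log2 fold change 3.82 ± 0.12 SE, edgeR adjusted p = 6.26e-08), and Ehf, an epithelial ETS factor, read 0.256 and 0.393 CPM in scramble and 5.04 and 7.6 CPM in shMCT-1 (log2 fold change 4.31 ± 0.39 SE, through shMCT-1 alone). All 3 were low in scramble and clearly present in shMCT-1. The desmosomal plaque protein Dsp, the splicing regulator Esrp1 and the junction scaffold Tjp1 fell (log2 fold changes -1.27, -0.82 and -0.80), and Cdh1, E-cadherin, was not called (297 and 293 CPM in scramble and 245 and 305 CPM in shMCT-1). Of 25 tested regulators of epithelial-mesenchymal transition and mesenchymal genes 7 rose, 11 fell and 7 were not called (median -0.12, held 3 and 8, corrected 3 and 8 with a median of -0.14). Tgfbr3, the TGF-β co-receptor betaglycan, read 4.1 and 4.75 CPM in scramble and 0.554 and 1.05 CPM in shMCT-1 (log2 fold change -2.39 ± 0.29 SE, edgeR adjusted p = 0.000145), and Smad3, which transduces TGF-β, read 127 and 122 CPM in scramble and 50.9 and 54.6 CPM in shMCT-1 (log2 fold change -1.19 ± 0.08 SE, edgeR adjusted p = 5.7e-06). Tgfb2, a TGF-β ligand, and the intermediate filament Vim rose (log2 fold changes 1.79 and 0.55). Without shMCT-1 replicate 2 the log2 fold change of Tgfb2 was 1.178 and that of Tjp1 -1.24, and without shMCT-1 replicate 1 that of Tjp1 was -0.45. Calls in both lists went in both directions, and with the correction as well.

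Among keratins and mammary lineage genes 11 of 26 were tested, of which 4 rose, 1 fell and 6 were not called (median 0.34, held 3 and 1, corrected 4 and 1 with a median of 0.05, with 1 fall through 1 group alone). Krt7, Krt14 and Krt18 rose by 0.85, 0.68 and 0.48 on the log2 scale beside the fall of Krt19, and Krt14 and Krt18 by 0.37 and 0.16 when corrected. Of 12 tested stem cell markers 5 rose, 4 fell and 3 were not called (median -0.10, held 4 and 3, corrected 5 and 3 with a median of -0.11, with 1 rise through 1 group alone). Alcam (14.7 and 15.5 CPM in scramble and 37.2 and 56.8 CPM in shMCT-1, log2 fold change 1.69 ± 0.17 SE, edgeR adjusted p = 4.94e-05) and the efflux pump Abcg2 (0.704 and 0.544 CPM in scramble and 2.47 and 1.41 CPM in shMCT-1, log2 fold change 1.67 ± 0.37 SE, through shMCT-1 alone) rose, and the pluripotency factor Klf4 (25.5 and 25.8 CPM in scramble and 8.72 and 11.2 CPM in shMCT-1, log2 fold change -1.31 ± 0.13 SE, edgeR adjusted p = 4.77e-05) fell. In the EGFR family and its ligands, with related receptors, 16 of 22 were tested, of which 3 rose, 7 fell and 6 were not called (median -0.09, held 2 and 6, corrected 5 and 8 with a median of -0.12, with 1 fall through 1 group alone). The ligands Nrg1 (61.5 and 64.7 CPM in scramble and 22.1 and 23 CPM in shMCT-1, log2 fold change -1.43 ± 0.10 SE, edgeR adjusted p = 4.5e-06) and Btc (log2 fold change -1.15) fell, and the receptors Erbb3 and Fgfr3 rose (0.76 and 1.21).

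The extracellular matrix lists held some of the largest changes. Of 37 matrix proteases and inhibitors 31 were tested, of which 21 rose, 3 fell and 7 were not called (median 0.82, corrected 21 and 4 with a median of 0.67, with 3 rises through 1 group alone), and 19 of the rises and 3 of the falls held whichever library was left out. Besides Mmp9 and Serpinb2, the serine protease inhibitor Serpina3g rose (0.096 and 0.212 CPM in scramble and 3.73 and 3.14 CPM in shMCT-1, log2 fold change 4.47 ± 0.37 SE, through shMCT-1 alone), and its neighbour Serpina3i read 0 CPM in both scramble libraries and 1.41 and 1.27 CPM in shMCT-1 (at least 28.7-fold higher). Serpina3 genes form a cluster of like sequences and their separate values are uncertain. The stromelysin Mmp3 (20.1 and 19.7 CPM in scramble and 5.85 and 7.1 CPM in shMCT-1, log2 fold change -1.57 ± 0.21 SE, edgeR adjusted p = 0.000217) and the aggrecanase-type protease Adamts1 (-1.33) fell. Of 18 tested genes for hyaluronan, tenascins and proteoglycans 7 rose, 7 fell and 4 were not called (median -0.11, held 7 and 5, corrected 7 and 6 with a median of -0.09, with 2 falls through 1 group alone). Sdc3, a syndecan, rose (3.42 and 3.75 CPM in scramble and 56.5 and 57.5 CPM in shMCT-1, log2 fold change 4.04 ± 0.11 SE, edgeR adjusted p = 6.26e-08) and Vcan, versican, fell (1.02 and 1.21 CPM in scramble and 0.151 and 0.319 CPM in shMCT-1, log2 fold change -2.16 ± 0.49 SE, through scramble alone), alongside the falls of Has3 and Tnxb. Among 23 tested integrins, laminins and adhesion genes 13 rose, 6 fell and 4 were not called (median 0.39, held 10 and 4, corrected 13 and 5 with a median of 0.29), with Itgb6 and Itgb3 higher (1.73 and 1.39) and Itga2 and Lama5 lower (-1.12 and -1.11). For collagens and their processing enzymes 20 were tested, of which 10 rose, 4 fell and 6 were not called (median 0.52, held 10 and 3, corrected 10 and 5 with a median of 0.45, with 3 rises through 1 group alone). Col5a3 read 0.064 and 0.0605 CPM in scramble and 2.62 and 2 CPM in shMCT-1 (log2 fold change 5.15 ± 0.43 SE, through shMCT-1 alone) and Col27a1 read 0 CPM in both scramble libraries and 1.11 and 1.23 CPM in shMCT-1, at least 25.1-fold higher, while Col4a5 and Col5a1 fell (log2 fold changes -1.48 and -1.17).

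Glycolysis and hypoxia genes were more often higher. Of 22 tested glycolysis genes 14 rose, 2 fell and 6 were not called (median 0.36, held 9 and 2, corrected 11 and 2 with a median of 0.20, with 1 rise through 1 group alone), and of 25 tested hypoxia response genes 13 rose, 5 fell and 7 were not called (median 0.33, held 9 and 4, corrected 11 and 8 with a median of 0.19). Aldoc, an aldolase, read 0.416 and 0.484 CPM in scramble and 11.3 and 11.3 CPM in shMCT-1 (log2 fold change 4.68 ± 0.20 SE, through shMCT-1 alone), and Pgf, placental growth factor of the VEGF family, read 0.896 and 1.21 CPM in scramble and 18.8 and 20.9 CPM in shMCT-1 (log2 fold change 4.27 ± 0.18 SE, edgeR adjusted p = 2.07e-07). Hif1a, the oxygen-regulated factor itself, fell (249 and 249 CPM in scramble and 111 and 158 CPM in shMCT-1, log2 fold change -0.84 ± 0.14 SE, edgeR adjusted p = 0.000912), as did Pdk1, a kinase that inhibits pyruvate dehydrogenase (log2 fold change -0.88). Genes of NRF2, glutathione and xenobiotic metabolism split, and of 52 tested 21 rose, 18 fell and 13 were not called (median 0.12, held 17 and 13, corrected 20 and 20 with a median of 0.04, with 2 rises and 2 falls through 1 group alone). Cyp1b1, a cytochrome P450, read 21.2 and 20.9 CPM in scramble and 1.76 and 2.28 CPM in shMCT-1 (log2 fold change -3.32 ± 0.19 SE, edgeR adjusted p = 1.7e-06), and Aldh3a1, an aldehyde dehydrogenase, read 31.1 and 28 CPM in scramble and 4.64 and 4.37 CPM in shMCT-1 (log2 fold change -2.66 ± 0.14 SE, edgeR adjusted p = 1.27e-06). Against them, the epoxide hydrolase Ephx1 read 0.192 and 0.181 CPM in scramble and 2.32 and 2.14 CPM in shMCT-1 (log2 fold change 3.59 ± 0.35 SE, through shMCT-1 alone) and the carbonyl reductase Cbr1 rose (1.84). Slc7a11, the cystine transporter, fell (60.1 and 63.7 CPM in scramble and 15.4 and 16.4 CPM in shMCT-1, log2 fold change -1.91 ± 0.09 SE, edgeR adjusted p = 6.21e-07).

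Of 31 tested ATF4 targets and genes of amino acid synthesis 10 rose, 11 fell and 10 were not called (median -0.04, held 7 and 7, corrected 8 and 13 with a median of -0.22). Asns, asparagine synthetase, rose (172 and 169 CPM in scramble and 357 and 307 CPM in shMCT-1, log2 fold change 1.01 ± 0.10 SE, edgeR adjusted p = 3.52e-05), and Cebpb, a transcription factor of the stress response, fell (382 and 346 CPM in scramble and 162 and 140.0 CPM in shMCT-1, log2 fold change -1.22 ± 0.10 SE, edgeR adjusted p = 1.82e-05). Among 20 cytosolic aminoacyl-tRNA synthetases 8 rose, 1 fell and 11 were not called (median 0.15, held 3 and 1, corrected 7 and 2 with a median of 0.13). For chaperones of the endoplasmic reticulum and the unfolded protein response 29 were tested, of which 20 rose, 3 fell and 6 were not called (median 0.50, corrected 21 and 3 with a median of 0.50), and 17 of the rises and 1 of the falls held whichever library was left out. Sdf2l1 (5.12 and 4.93 CPM in scramble and 12.1 and 10.2 CPM in shMCT-1, log2 fold change 1.20 ± 0.14 SE, edgeR adjusted p = 0.00012) and the secreted stress factor Manf (108 and 103 CPM in scramble and 198 and 188 CPM in shMCT-1, log2 fold change 0.92 ± 0.08 SE, edgeR adjusted p = 2.3e-05) rose, and Dnajb9, a co-chaperone that restrains IRE1, fell (10.9 and 13.2 CPM in scramble and 6 and 7.24 CPM in shMCT-1, log2 fold change -0.81 ± 0.16 SE, edgeR adjusted p = 0.00196).

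Nuclear and mitochondrial genes of the respiratory chain lay on opposite sides. Of 79 tested nuclear genes 52 rose, 1 fell and 26 were not called (median log2 fold change 0.42), and 25 of the rises and 0 of the falls held whichever library was left out. After correction for GC content and length the median was 0.27, with 40 higher and 2 lower. All 13 mitochondrially encoded protein genes were tested, and 11 fell and none rose (median -1.19, -0.83 after the correction, and -0.68 under IgG), with 10 of the falls holding with each library left out, and with 1 higher and 10 lower after the correction. These are the genes that make up the mitochondrial share given above. Nuclear copies of mitochondrial sequence can share their reads, which makes single values uncertain.

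Of 82 tested cytosolic ribosomal protein genes 54 rose, 1 fell and 27 were not called (median 0.44, 0.28 after the correction, where 38 were higher and 3 lower). Of these rises 20 held with each library left out, and processed pseudogenes of ribosomal proteins make single values uncertain. Mitochondrial ribosomal proteins gave 46 rises and 6 falls of 78 tested (median 0.39, held 22 and 1, corrected 38 and 6 with a median of 0.25), and proteasome subunits 23 rises and 3 falls of 45 (median 0.33, held 15 and 2, corrected 23 and 4 with a median of 0.26, with 1 rise through 1 group alone). Among 51 translation initiation factors 23 rose, 7 fell and 21 were not called (median 0.20, held 9 and 2, corrected 21 and 6 with a median of 0.19). Replication-dependent histones, whose mRNAs carry no poly(A) tail and are poorly caught by poly(A) selection, gave 2 rises and 9 falls of 49 (median -0.29, held 0 and 7, corrected 2 and 9 with a median of -0.34, with 1 fall through 1 group alone). Of the 49 tested histones 39 lay on chromosomes 2, 12 and 13, which were lower as a whole (below), with 7 of the falls and 1 of the rises. The zinc finger genes Zfp900 to Zfp999 gave 1 rise and 22 falls of 40 (median -0.63, held 1 and 10, corrected 2 and 14 with a median of -0.36, with 1 rise and 2 falls through 1 group alone).

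**Figure D4:**
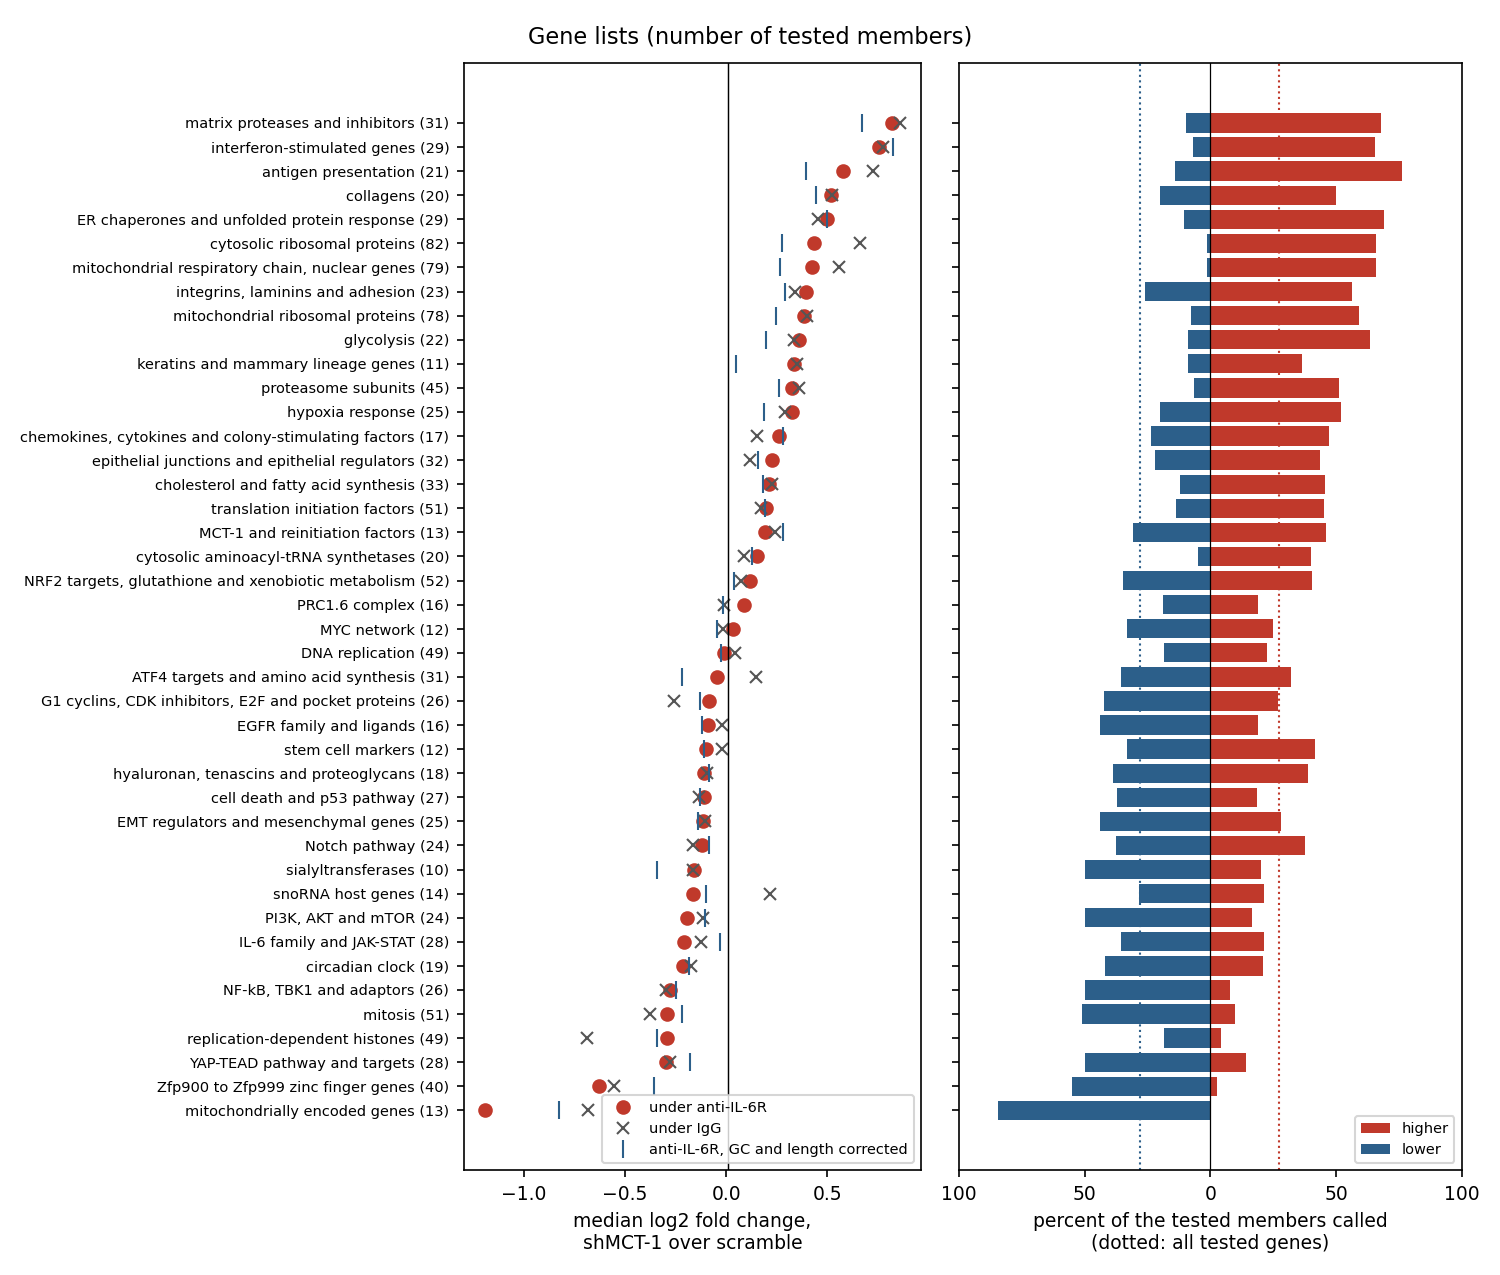
Left, median log2 fold change (x axis, shMCT-1 over scramble) of each gene list with at least 10 tested members (number in brackets), under anti-IL-6R (red), under IgG (crosses) and under anti-IL-6R after the GC and length correction (blue ticks), with a vertical line at the median over all tested genes, 0.01. Right, percent of those members called higher (red, to the right) and lower (blue, to the left) under anti-IL-6R, with dotted lines at 27.1% and 27.9% for all tested genes, where matrix proteases have a median of 0.82 and mitochondrially encoded genes one of -1.19.

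Signalling and regulatory lists were mixed. Of 28 genes of the YAP-TEAD pathway and its targets 4 rose, 14 fell and 10 were not called (median -0.30, held 4 and 9, corrected 7 and 14 with a median of -0.18). The DNA-binding partners Tead4 and Tead1 fell (log2 fold changes -0.95 and -0.78, with -0.31 for Tead1 when corrected). Among the 4 rises were the targets Ccn2, Ccn1 and Ankrd1, which do not stand for the targets as a set. Ankrd1 read 18.7 and 17.7 CPM in scramble and 56.3 and 60.6 CPM in shMCT-1 (log2 fold change 1.73 ± 0.09 SE, edgeR adjusted p = 9.42e-07). Of 24 tested Notch genes 9 rose, 9 fell and 6 were not called (median -0.12, held 7 and 6, corrected 9 and 9 with a median of -0.08), with the receptors Notch1 (58 and 57.5 CPM in scramble and 13.9 and 17.9 CPM in shMCT-1, log2 fold change -1.81 ± 0.13 SE, edgeR adjusted p = 6.33e-06) and Notch2 (-0.93, -0.61 when corrected) lower and the ligand Dll4 higher (1.17). Among 24 genes listed for PI3K, AKT and mTOR 4 rose, 12 fell and 8 were not called (median -0.19, held 4 and 7, corrected 9 and 8 with a median of -0.10), with the regulatory subunit Pik3r5 lower (17.8 and 16.7 CPM in scramble and 1.86 and 2.55 CPM in shMCT-1, log2 fold change -2.90 ± 0.19 SE, edgeR adjusted p = 3.55e-06), the Src-family kinase Fyn, which is not a core member, higher (log2 fold change 1.62) and Akt1 not called (688 and 659.9 CPM in scramble and 712 and 685 CPM in shMCT-1). Of 27 tested genes of cell death and the p53 pathway 5 rose, 10 fell and 12 were not called (median -0.11, held 1 and 6, corrected 3 and 9 with a median of -0.13), and the death receptor Fas fell (19.104 and 19.478 CPM in scramble and 6.6 CPM in both shMCT-1 libraries, log2 fold change -1.50 ± 0.13 SE, edgeR adjusted p = 2.3e-05).

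Of 33 genes of cholesterol and fatty acid synthesis 15 rose, 4 fell and 14 were not called (median 0.21, held 9 and 1, corrected 16 and 5 with a median of 0.18). The desaturase Fads1 and the lipid regulator Srebf1 rose (log2 fold changes 0.79 and 0.77). For the circadian clock, 19 genes were tested and 4 rose, 8 fell and 7 were not called (median -0.21, held 1 and 5, corrected 1 and 9 with a median of -0.19), with the repressor Bhlhe41 (88.1 and 88.3 CPM in scramble and 9.22 and 10.3 CPM in shMCT-1, log2 fold change -3.12 ± 0.10 SE, edgeR adjusted p = 7.78e-08) and the activator Clock (log2 fold change -1.32, -0.74 when corrected) lower. Of 10 tested sialyltransferases 2 rose, 5 fell and 3 were not called (median -0.16, held 2 and 3, corrected 2 and 5 with a median of -0.34, with 1 fall through 1 group alone), and St6galnac2 fell most (3.39 and 5.05 CPM in scramble and 0.857 and 0.182 CPM in shMCT-1, log2 fold change -2.998 ± 0.49 SE, through scramble alone). Among 14 tested snoRNA host genes 3 rose, 4 fell and 7 were not called (median -0.16, held 1 and 2, corrected 2 and 3 with a median of -0.10), with Snhg20 and Snhg17 lower (log2 fold changes -1.43 and -1.28). The median of these host genes was 0.22 under IgG, and its SD between replicates under anti-IL-6R was 0.14. Of 10 listed imprinted genes of proximal chromosome 6 only 5 were tested, and Peg10 and Sgce read 0 CPM in all anti-IL-6R libraries. The 5 tested genes rose (median 0.71, held 4 and 0, corrected 5 and 0 with a median of 0.99), including Pon3, a lactonase (2.14 and 1.84 CPM in scramble and 5.09 and 5.51 CPM in shMCT-1, log2 fold change 1.46 ± 0.20 SE, edgeR adjusted p = 0.00026), and Asb4 (log2 fold change 1.16).

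Genes of 3 chromosomes were lower as a whole. The median log2 fold change was -0.36 on chromosome 2, -0.36 on chromosome 12 and -0.40 on chromosome 13, against -0.09 to 0.19 on the other chromosomes without the mitochondrial genome. Over these 3 chromosomes 1932 genes were tested, of which 180 (9.32%) were called higher and 1009 (52.2%) lower. Elsewhere 10352 genes were tested, with 3155 (30.5%) higher and 2410 (23.3%) lower. Each chromosome was also divided by position into 5 bins of equal numbers of tested genes, and the median was negative in all 5 bins of each of the 3, from -0.28 to -0.44 on chromosome 2, from -0.27 to -0.46 on chromosome 12 and from -0.26 to -0.58 on chromosome 13. After correction for GC content and length the medians were -0.38, -0.32 and -0.31. E2f6 lies on chromosome 12 and Mga and Mcts2 on chromosome 2, so Mcts2 stands on a chromosome whose own median was -0.36. Of tested list members on these 3 chromosomes, 2 of 3 reinitiation factors, 7 of 9 mitosis genes and 6 of 7 zinc finger genes fell, and none rose. Matrix proteases there gave 4 rises and 1 fall of 6, and epithelial junction genes 4 rises and 2 falls of 7. The part of the chromosome in single falls was not tested.

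**Figure D5:**
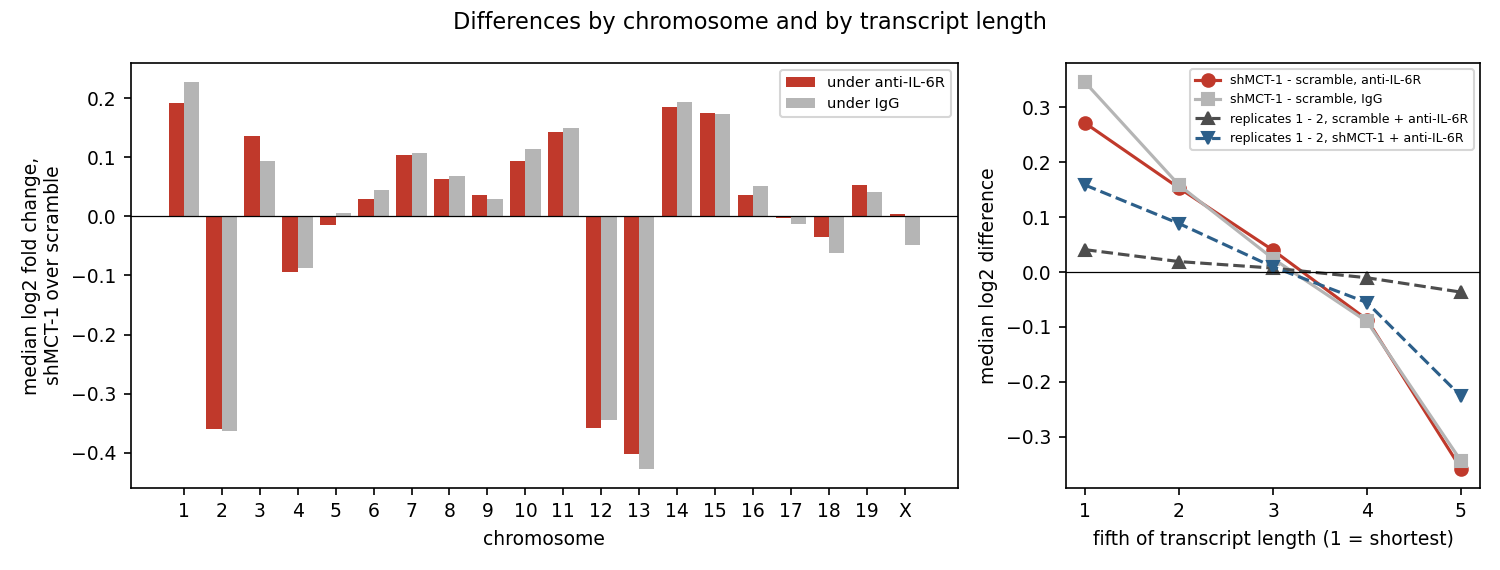
Left, median log2 fold change (y axis, shMCT-1 over scramble) of the tested genes of each chromosome under anti-IL-6R (red) and IgG (grey), with chromosomes 2, 12 and 13 at -0.36, -0.36 and -0.40 under anti-IL-6R. Right, median log2 difference (y axis) in 5 bins of transcript length from the shortest to the longest (x axis), for shMCT-1 over scramble under each antibody (solid lines) and for replicate 1 over replicate 2 within each anti-IL-6R group (dashed lines), which falls from 0.27 to -0.36 for the comparison under anti-IL-6R.

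Transcript length moved with the comparison too. In 5 equal bins of genes from the shortest to the longest transcripts the median log2 fold change was 0.27, 0.15, 0.04, -0.09 and -0.36, and after the correction it ran from 0.08 to -0.11. The 2 shMCT-1 libraries under anti-IL-6R also differed from each other by length, with a median log2 difference between replicates 1 and 2 of 0.159 in the shortest bin and -0.226 in the longest, against 0.0407 and -0.0366 in scramble. Median transcript lengths were 1076.5 bases for ribosomal protein genes, 1141 for nuclear respiratory chain genes, 2773 for the zinc finger genes and 4015 for mitosis genes, against 3238 over all tested genes. The part of length in the changes of a list was not tested beyond the corrected counts and medians given above.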

How the data were processed

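Poly(A)-selected RNA of 4T1 cells was sequenced by the study in 8 libraries of 4 groups with 2 replicates each, and 4 libraries enter the comparison described above. The authors trimmed reads with cutadapt 1.18, aligned them with STAR 2.7.0d to mm10 with GENCODE annotation and deposited the expected counts that RSEM estimated per gene. Reads that fit several genes are shared among them in such counts, and 29.6% of the values above 0 were not whole, so values were rounded. Of 54532 gene identifiers, 54495 matched the mm10 annotation used here for names, positions, length and GC content without the version suffix and 53315 with it, since that release is later than the one the authors used.

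Genes were kept where 2 or more of the 4 anti-IL-6R libraries exceeded 1 CPM. Counts were normalized by TMM and tested with the quasi-likelihood test of edgeR 4.0.16 (limma 3.58.1, R 4.3.3) on 4 group means, with Benjamini-Hochberg adjustment over every tested gene. Genes were called at an adjusted p under 0.05. Each SE is the absolute log2 fold change divided by the square root of the F statistic of this test. CPM values were taken over library totals, and 1 CPM was 19.8 to 33.1 counts in the libraries. A group at 0 was given a floor of 3 counts over the group, and at 1 to 3 counts a ratio of pooled CPM was given with its exact 95% interval. Intervals and floors cover counting error only.

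Alternatives were other size factors, DESeq2 1.42.0, edgeR's exact test, other filters, the 4 libraries alone, the replicate number as a block, a loess correction (span 0.3) for GC content and length, thinning to the smallest total, no mitochondrial genes, and leaving out each library. The scripts were checked on simulated data in which few genes changed and no trend with transcript length was set. That check covers the code and not the error rate under changes as broad as these. Replicate numbers were shared by the groups in the labels, and the correlation of replicate differences between pairs of groups ran from -0.0862 to 0.0951, so the numbers were not taken to pair the libraries.

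The comparison, the gene lists and the rule for named genes were chosen with earlier results of these data known. The rule took genes of the MCT-1 and IL-6 axis, the 12 protein-coding genes with the largest calls in each direction at a mean of at least 5 CPM in the higher group with no overlap between groups, the 5 in each direction at a mean of at least 200 CPM, and from each list up to 3 calls in each direction and the most abundant gene not called. The 5 in each direction were held to the same lack of overlap. Hairpin targets were read from the study's sequence list and matched to mm10 transcripts.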

Additional observations from a re-analysis of the deposited data

How the results depend on the processing

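The count of 6766 calls ran from 5571 (a mean of at least 5 CPM) to 7780 (no filter) over the alternatives that kept all libraries, and from 4399 to 7236 with 1 library left out (higher 2114 to 3625, lower 2285 to 3613), the lowest being without scramble replicate 2 under anti-IL-6R. Calls with an absolute log2 fold change above 1 numbered 837 at a mean of at least 5 CPM and 2943 with no filter, where fewer and more genes were tested. The interaction gave 5 calls with DESeq2, 97 with no filter, and 0 to 8 with 1 library left out (8 without scramble replicate 1 under IgG). Mcts1 stayed called in every alternative run, at log2 fold changes of -1.18 to -0.88 with all libraries. Replicate numbers share only a number, and with the number as a replicate block 6915 genes were called and Mcts1 was at -1.14, while the correlation of replicate differences between scramble and shMCT-1 under anti-IL-6R was -0.0164.

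Genes not called changed sign under some alternatives, and the cause was not tested. Akt1 and Max stood at -0.159 and -0.0866 with the GC and length correction. On library totals only, Ccna2 was at -0.0354 and Mycbp at -0.0413, and at a mean of at least 5 CPM they were at -0.00689 and -0.0129. Pvr was at 0.0175 in thinned libraries. With single libraries left out, Ccna2 ran from -0.013 to 0.0519, Mycbp from -0.0234 to 0.0399, Pvr from -0.107 to 0.0201 and Cdh1 from -0.203 to 0.0891.

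Each group held 2 libraries and depth differed between the groups. Genes under 1 CPM, Il6, Ppbp, Cxcr2, Cd274 and Egfr among them, were tested only with no filter, where Il6, Cd274 and Egfr were called.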
